A study of Caenorhabditis elegans with 2 samples.

Results

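Exon peaks away from gene starts were taken from a chromatin immunoprecipitation sequencing (ChIP-seq) experiment on the Caenorhabditis elegans protein Y53G8AR.9. A peak of the authors' conservative list was counted when its summit lay more than 500 bp from every protein-coding transcript start, not in the 300 bp past the end of a coding gene, and inside coding sequence or an untranslated region (UTR) of a protein-coding gene. Of the 2742 peaks in the list, 275 met this rule (10.03%, exact 95% Clopper-Pearson interval 8.93% to 11.2%, which covers counting error only). Of these, 197 summits lay in coding sequence, 75 in 3′ UTRs and 3 in 5′ UTRs. The other 2467 peaks comprised 1224 within 500 bp of a start, 498 past a gene end, 328 in introns and 417 outside coding genes. The worms were strain RW12264, in which the CRISPR allele st12264 adds a TY1::EGFP::3xFLAG tag to Y53G8AR.9 on chromosome III. Whole young adults 64 hours old, synchronised by starving L1 larvae after bleaching, were used, and chromatin was precipitated with an antibody against GFP. The experiment has 1 group with 2 biological replicates, all carrying the tagged gene, so there was no comparison between conditions (a possible control that the labels name was not analysed here), and signal from different tissues of the whole animal cannot be told apart. The files hold peak positions and the authors' signal, in arbitrary units, without read counts, and sequencing depth is therefore unknown.

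Y53G8AR.9 is annotated as a protein with a CCCH zinc finger domain, a fold in which a zinc ion is held by cysteines and a histidine. Proteins of this family are best known for binding RNA, and several C. elegans members act in oocytes and early embryos. ChIP-seq recovers DNA that is crosslinked to a protein directly or through other molecules, so a peak shows where the tagged protein was recovered and not how it was held there. Most binding sites of transcription factors in the compact worm genome lie close to gene starts. Exons are transcribed and, in coding sequence, constrained by the protein code, and they are richer in G and C than introns and UTRs.

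The summits of the strongest exon peaks in coding sequence and UTRs are shown so that the DNA recovered there can be read, and they do not stand for the base composition of the whole set. Each line gives 30 bases centred on the summit, 5′ to 3′ on the strand of the host gene (the gene whose exon holds the summit), with G and C in capitals. Only peaks that overlapped no other peak of the list were chosen. The first 4 have their summits in coding sequence, at II:5661760-5661789, X:5429530-5429559, II:11149984-11150013 and V:20163142-20163171. The next 4 have theirs in 3′ UTRs, at III:10746600-10746629, IV:7043657-7043686, III:10810975-10811004 and III:5506331-5506360, and the last has its summit in a 5′ UTR at III:3456431-3456460. The summits of mdt-26 and klp-7 lay 6 and 9 bp from an edge of the exon, so these lines also hold bases beyond that exon. Coordinates are 1-based on ce11 (WBcel235), and the bases were read from the RefSeq sequence of that assembly.
mdt-26: GaCGaGtCGaGaaattttaGaGGtaaGGtt
pks-1: aCCttatCCaaGaGaCtCatCtCGtGtCCC
arrd-6: CtGGtaaCCGaaCCaaaCGGatCCCGaCGt
F19B2.5: ttGaCGCCaCCtaCCGCtGGGttCtaaCGG
rib-2: ttGCaaCaaGttGtttaaaattttttaGtC
klp-18: ttCCaGGGGtGCGCGGCaatttCCGaaaCC
klp-7: tttaaatGaaCCattttattCGtttaatCa
R02F2.1: CCCCGCCCCCGCGCttCaaaCtGtGGatta
C34C12.2: GCGCGCtCCaCCGCaCGtGtGtaaaaCaaa

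The lines at coding summits held 12, 15, 17 and 18 G or C bases of the 30, in the order printed. The 3′ UTR summits spread more widely, with 7 at rib-2, 18 at klp-18, 6 at klp-7 and 19 at R02F2.1. The 5′ UTR summit of C34C12.2 held 17 and contained CACGTG, the E-box hexamer recognised by many basic helix-loop-helix proteins, starting 2 bp before the summit. In the wider window of 50 bp to each side, G+C content was lower than in the flanks centred 300 bp away at rib-2 (26.7%, against 39.1%) and klp-7 (36.6%, against 50.5%), and higher than in the flanks at the other 7 summits printed.

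The strongest exon peak had its summit in the second of 8 exons of mdt-26, a subunit of the Mediator complex that links transcription factors to RNA polymerase II. Its signal was 245 in the conservative list, 153 in replicate 1 and 105 in replicate 2. Of its interval 19.1% was exon, and the summit lay 6 bp from the exon edge and 594 bp from the nearest start. The next lay deep in pks-1, a polyketide synthase gene, in exon 22 of 30, with a signal of 237 and replicate values of 114.6 and 108. The peak in the long first exon of C34C12.2, which encodes a fibronectin type-III domain protein, had a signal of 223 and replicate values of 132 and 103. These 3 were high in both replicates, and in each of them replicate 1 gave the larger value. The peaks at stdh-1 (a putative steroid dehydrogenase) and arrd-6 (an arrestin-domain protein) lay in the last coding exon and both had a signal of 205. In stdh-1 the replicates gave 90.3 and 82.5. That peak overlapped a peak outside the exon set, with which the replicate values may be shared. In arrd-6 the replicates gave 81.7 and 110.0, so there the second replicate was higher.

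The 5 peaks that followed were in 3′ UTRs, all within 100 bp of the annotated end of the gene. At rib-2, an exostosin-like enzyme of heparan sulfate synthesis, the signal was 183, with 85.4 in replicate 1 and 96.8 in replicate 2, and the same bases also belong to an exon of ran-1, the Ran GTPase of nuclear transport. The kinesin genes klp-18, needed for the oocyte meiotic spindle, and klp-7, a microtubule-depolymerising kinesin, had signals of 179.5 and 162. Replicate 1 gave 99.1 and replicate 2 gave 65.9 at klp-18, while klp-7 had 85.4 and 91.1. The peak of car-1, an RNA-binding protein of germ-line granules, had a signal of 152 with replicate values of 70.7 and 74.1. It too overlapped a peak outside the exon set. R02F2.1, annotated with a cyclin-like domain, had 137 with 51.9 and 44.6. R02F2.1 was the only one of the 10 strongest whose peak did not overlap a thresholded peak in both replicates, since its overlap was with replicate 1 alone.

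The 25 strongest exon peaks had signals of 95.7 to 245 and lay in 24 host genes. Of these peaks, 12 were in coding sequence, 12 in 3′ UTRs and 1 in a 5′ UTR, and 16 were in the last exon. Beyond the 10 above, the 3′ UTR peaks were at hsp-12.3 (a small heat shock protein), ekl-1 (a Tudor-domain protein of germ-line small RNA pathways), rsp-3 (an SR splicing factor), hil-4 (a linker histone H1), cgh-1 (a DEAD-box RNA helicase of germ granules), eef-2 (translation elongation factor 2) and ppm-2 (a protein phosphatase 2C). The coding peaks were at F19B2.5 (an SNF2-domain protein), mak-1 (a MAP kinase-activated protein kinase), wrn-1 (the Werner helicase), vit-2 (a yolk protein, with 2 peaks), Y44A6C.1 (annotated as an F-box protein), C15F1.5 (annotated with a RING-type domain) and glr-2 (a glutamate receptor subunit). Of the 25, 20 overlapped thresholded peaks of both replicates, 5 of a single replicate and 0 of neither, and all 25 overlapped a peak of the other series-wide thresholded list. The signal of hsp-12.3 was 106, with 47.1 in replicate 1 and 72.2 in replicate 2, and that of rsp-3 was 103, with 50.2 and 70.7. At mak-1 the order was the other way, with a signal of 107 and replicate values of 60.2 and 26.6. The eef-2 summit was the last base of the gene, and 7.81% of the interval of that peak was exon.

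**Figure D1:**
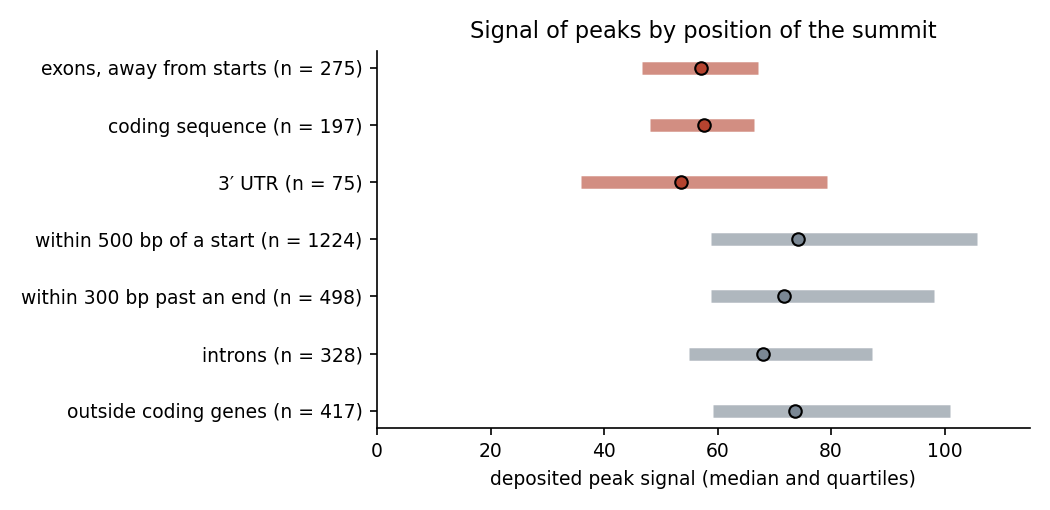
Signal of the authors' conservative peaks by the position of the summit, with the median (point) and the quartiles (bar) of each class on a linear axis. Exon peaks (red, with their coding and 3′ UTR members below) had a median of 57.2 and every other class (grey) had a median between 67.98 and 74.1.

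Exon peaks were weaker than the rest of the list. Their median signal was 57.2 (quartiles 46.7 and 67.2, range 2.09 to 245), against 72.5 for the other 2467 peaks (quartiles 57.8 and 101, range 2.10 to 883). Coding peaks had a median of 57.6 with narrow quartiles of 48.2 and 66.3, and 3′ UTR peaks a median of 53.6 with wider quartiles of 35.95 and 79.2. Of the exon peaks, 63 (22.9%) were at or above the median signal of the list, against 53.02% of the other peaks. The authors' score, an integer scale of the irreproducible discovery rate (IDR), reached its maximum of 1000 in 130 exon peaks (47.3%) and in 72.3% of the others. Within the exon set the maximum was reached by 41.6% of the coding peaks and 61.3% of the 3′ UTR peaks.

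The share of exon peaks was higher among weaker peaks. With the list divided by signal into 10 equal bins from the strongest to the weakest, they made up 3.27% of bin 1 (9 of 275 peaks) and 0.727% of bin 2 (2 of 275). In bin 7 the share was 12.4%, in bin 8 it was 17.2%, in bin 9 it was 18.2% and in bin 10 it was 20.8% (57 of 274). Peaks within 500 bp of a start ran the other way, with 55.6% of bin 1 and 38.7% of bin 10. Among the regions of the authors' ranked list that did not enter the conservative list, 22301 of 84608 (26.4%) met the exon rule, against 10.03% inside it. Exon sequence that meets the rule spans 19.8 Mb, 19.7% of the genome, and held 13.9 peaks per Mb, against 30.6 per Mb in the remaining sequence.

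**Figure D2:**
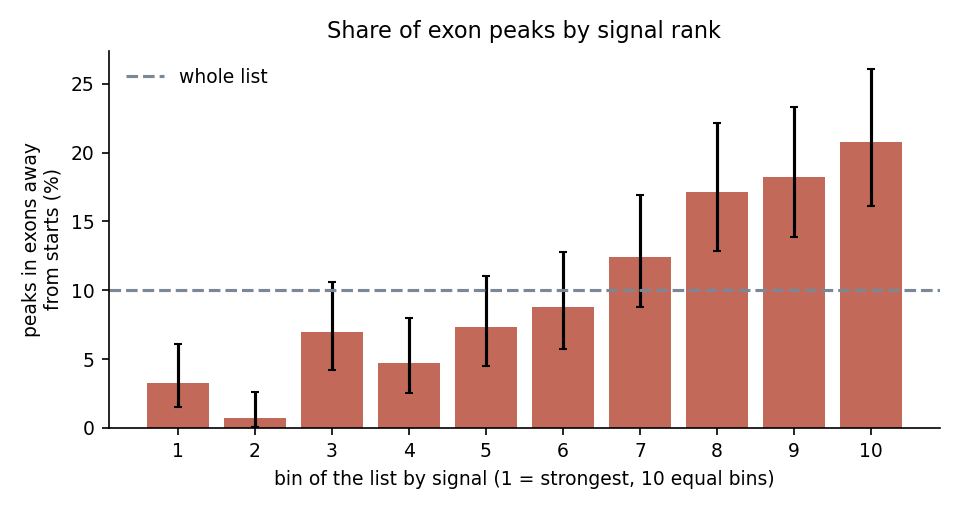
Share of exon peaks in 10 equal bins of the conservative list, ordered by signal from the strongest (1) to the weakest (10), with exact 95% Clopper-Pearson intervals; the dashed line is the share in the whole list, 10.03%. The share lay below 10.03% in bins 1 to 6 and reached 20.8% in bin 10.

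A smaller share of exon peaks than of other peaks was found in the lists of the single replicates. Of the 275, 43 (15.6%, interval 11.6% to 20.5%) overlapped a thresholded peak of each replicate by at least 1 bp, 73 (26.5%) of a single replicate and 159 (57.8%) of neither. In the whole list 29.1% overlapped both, and among the other peaks 30.6% overlapped both and 40.7% neither. The shares were also taken in an upper and a lower part of the list, split by signal. Among the strongest 30% of the list, 23 of 30 exon peaks (76.7%, interval 57.7% to 90.1%) overlapped both replicates, against 78.2% of the 793 other peaks. In the lower 70% the shares were 8.16% of 245 exon peaks (interval 5.06% to 12.3%) and 8.06% of 1674 others. In both parts of the list the intervals of the exon peaks therefore hold the shares of the other peaks. With a single cut, exon peaks and others within a part can still differ in strength, and what strength adds to the difference was not tested. The other series-wide thresholded list contained 190 of the exon peaks (69.1%), against 82.3% of the rest.

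Replicate signals were taken from the overlapping peak of the highest signal in a replicate's own thresholded list or, where it had none, in its ranked list. They had a median of 35.2 in replicate 1 (quartiles 30.9 and 42.5, 272 peaks) and 29.2 in replicate 2 (quartiles 25.1 and 35.2, 271 peaks). The medians of the other peaks were 42 and 34.8. Over the 268 exon peaks with a value in each replicate, log2 signals had a Pearson r of 0.58, but Spearman's rho was 0.15, against 0.75 and 0.55 over 2409 other peaks. The other peaks had wider quartiles, 33.6 and 57.3 in replicate 1 and 28.0 and 47.5 in replicate 2. What this wider range adds to the difference in r and rho was not tested. Without the 25 strongest, the r over the remaining 243 was 0.32 and the rho was -0.06. Leaving peaks out by the signal of the list narrows the range of the replicate signals, so these values cannot be set beside those of the other peaks. The ratio of replicate 1 to replicate 2 had a median of 1.24 (quartiles 0.965 and 1.52), against 1.21 in the others.

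**Figure D3:**
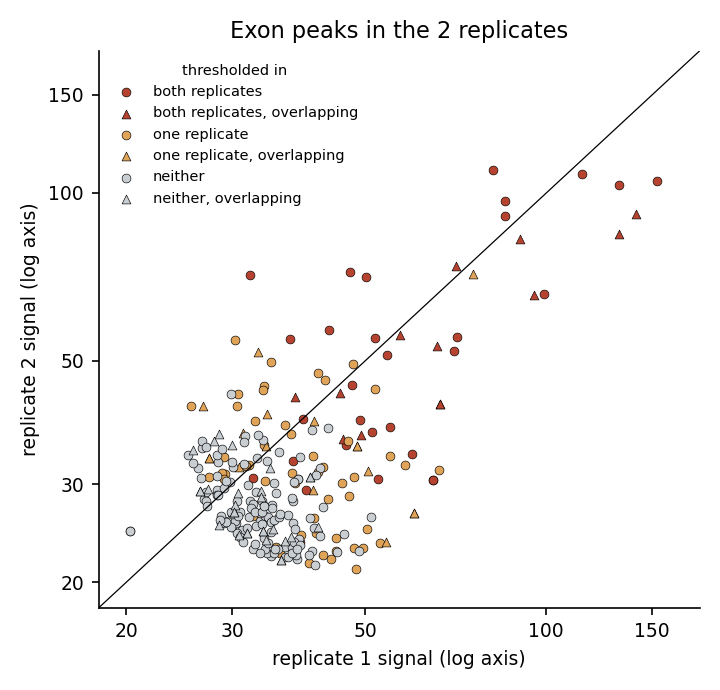
Signal of each exon peak in replicate 1 and replicate 2, both on log axes, coloured by whether it overlapped a thresholded peak of both, one or neither replicate; triangles are peaks that overlap another peak of the list, and the line marks equal values. The highest values were 153 in replicate 1 (mdt-26) and 110.0 in replicate 2 (arrd-6), and most peaks lie around the medians of 35.2 and 29.2.

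Some rows of the list cover the same stretch of DNA. Of the exon peaks, 62 overlapped another peak of the list, 40 of them a peak that did not meet the rule, and 2 rows at mak-1 shared the interval II:8746310-8746749 with different summits. Merging overlapping exon peaks left 264 separate regions. The weakest rows were mostly of this kind, since 24 exon peaks had a signal under 20, and 22 of those overlapped another peak. A replicate value can be shared by rows that 1 replicate peak overlaps, as at vit-2, where the peaks of 97.8 and 16.5 do not overlap each other and both had 64.9 in replicate 1 and 30.5 in replicate 2. Over the 213 exon peaks that overlapped no other, 30 (14.1%) were shared by both replicates and the median signal was 59.4, against 31.2% and 74.9 for the 2131 other peaks of that kind. Their replicate signals had a rho of 0.08, against 0.55, and the part of the range of signals in this was not tested either.

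Exon peaks were placed towards the ends of genes. Of the 275, 75 (27.3%, interval 22.1% to 32.9%) lay in 3′ UTRs, which make up 11.0% of the exon sequence meeting the rule, and 197 (71.6%) lay in coding sequence, which makes up 88.1%. That is 34.5 peaks per Mb of 3′ UTR and 11.3 per Mb of coding sequence. Without the peaks that overlap another, the densities were 20.3 and 9.53 per Mb. The last exon of the host transcript held 129 summits (46.9%, interval 40.9% to 52.995%), against 23.5% of the eligible sequence, and internal exons held 140 (50.9%), against 75.1%. Without overlapping peaks the last exon held 85 of 213 (39.9%).

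**Figure D4:**
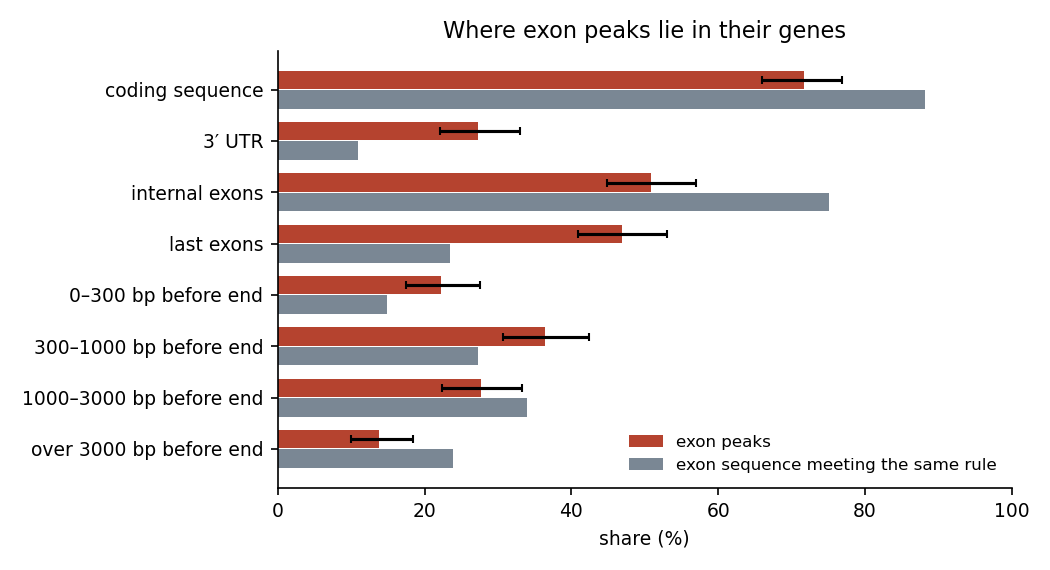
Shares of exon peaks (red, with exact 95% Clopper-Pearson intervals) and of all exon sequence that meets the same position rule (grey) by feature, exon and distance before the end of the gene, on an axis from 0. In 3′ UTRs, last exons and the final 1000 bp the share of peaks is above the share of sequence, and in coding sequence, internal exons and beyond 3000 bp it is below.

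By distance, 61 summits (22.2%) were within 300 bp of the end of the gene, against 14.9% of eligible sequence, and 38 (13.8%) were over 3000 bp from it, against 23.9%. The median distance to the gene end was 638 bp, against 1284 bp. In coding sequence alone the lean was smaller, with 9.64% of summits and 8.95% of sequence within 300 bp of the end, 35.0% and 27.3% between 300 and 1000 bp, and 17.8% and 26.5% beyond 3000 bp. Inside 3′ UTRs the median distance was 264 bp, against 179 bp for 3′ UTR sequence, so as a set the summits there did not crowd at the last bases. Of the 25 strongest exon peaks, however, 9 lay within 100 bp of the gene end. The host exons were long, with a median of 492 bp at exon summits and 340 bp over eligible sequence, and the summit lay a median of 106 bp from the nearest exon edge, against 73 bp. In 108 peaks (39.3%) the whole interval was exon, and in 16 less than 50% of it was.

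The rule has 2 edges. Of the exon peaks, 26 had their summit 500 to 600 bp from the nearest start, with a median signal of 61.1, and the 25 exonic peaks left out at 400 to 500 bp had a median of 57.2. A further 182 exonic peaks away from starts were left out because they lay in the 300 bp past the end of another gene, and their median was 70.2. Exon peaks within 1000 bp of a start had a median of 59.9 (91 peaks) and those farther away one of 56.4 (184 peaks).

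All 6 chromosomes held exon peaks, from 36 on X to 52 on III. Per Mb of eligible sequence the count was 17.7 on III, 15.6 on IV, 14.8 on II, 13.9 on I, 11.4 on V and 11.3 on X. The share of each chromosome's peaks that were exonic ran from 8.72% on I to 10.8% on II, and the median signal from 55.5 to 58.6.

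Summits were richer in G and C than their surroundings. Within 50 bp of the summit the median G+C content of exon peaks was 44.6%, against 37.1% in flanks centred 300 bp to each side, and the summit was higher than its flanks in 212 of 275 peaks (77.1%). The rest of the list showed the same, with 77.6% of summits higher. Flanks of exon peaks often reach into introns, so the summits were also set beside windows of the same length centred in exon sequence. Such windows can reach into introns too. Coding summits lay a median of 92 bp from an exon edge, against 68 bp for eligible coding sequence, and what this adds to the difference was not tested. Coding summits had a median G+C content of 47.5%, against 40.6% over 172473 windows centred in coding sequence. The 3′ UTR summits had one of 36.6%, against 30.7% over 23333 windows centred in UTRs. The host genes themselves were rich in G and C. Beside the other windows centred in coding sequence of its own host gene, whose median was 45.0%, the coding summit was higher in 127 of 175 peaks (72.6%, interval 65.3% to 79.0%), by a median of 2.97 percentage points. For 3′ UTR summits the same comparison gave 22 of 39 (56.4%, interval 39.6% to 72.2%).

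**Figure D5:**
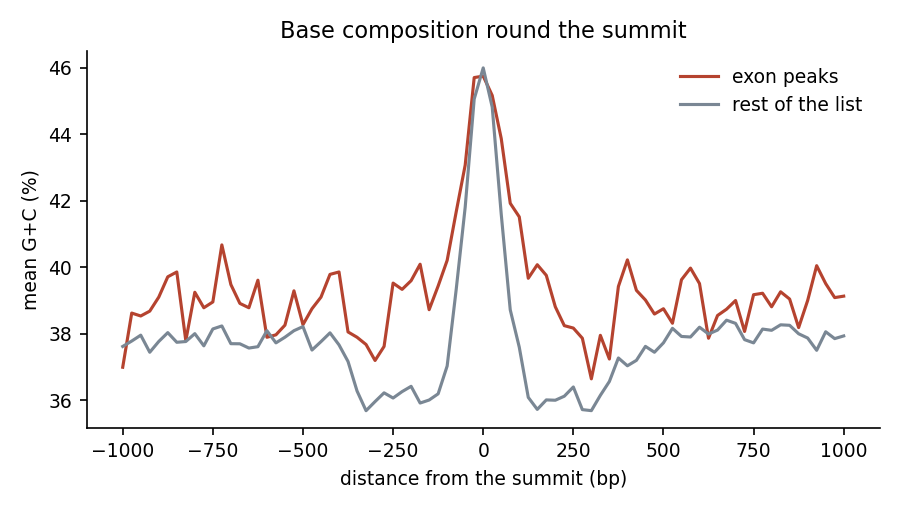
Mean G+C content in 25 bp windows by distance from the summit, for exon peaks (red) and the rest of the list (grey). The mean was 45.7% at exon summits and 46.0% at the others, and 36.9% and 35.8% at 300 bp on either side; the vertical axis does not start at 0.

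Of the 16 short motifs counted on both strands within 50 bp of the summit, several AT-rich ones were less frequent at exon summits than in their flanks. TTTTTT was found in 15.3% of exon summits (interval 11.2% to 20.1%), against 36.2% of their flanks and 24.7% of the summits in the rest of the list. That interval holds the 19.7% of the 195806 windows centred in eligible exon sequence. TTTGAA was found in 9.09% (interval 5.97% to 13.1%), against 20.2% of flanks, 20.2% of windows and 17.5% of the other summits. TTTTCAG, the usual end of a worm intron, was found in 4.36% (interval 2.27% to 7.50%), against 10.4% of flanks and 8.78% of windows, both of which can reach into introns. The interval holds the 6.36% of the other summits. For the AT-rich motifs that follow, the intervals held both the share of exon windows and that of the rest of the list. AATAAA, the hexamer of the polyadenylation signal, was found in 12.7% (interval 9.03% to 17.3%), against 23.1% of flanks, 13.98% of windows and 14.4% of the other summits. TATAAA was found in 5.82% (interval 3.36% to 9.28%), against 11.5%, 6.64% and 5.72% of the same sets. GATAA, the core of GATA factor sites, was found in 17.1% (interval 12.8% to 22.1%), which holds the 20.2% of flanks, 21.4% of windows and 16.1% of the other summits.

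GAGAGA was found in 8.36% of exon summits (interval 5.38% to 12.3%), which holds the 5.51% of exon windows, against 14.5% of the summits in the rest of the list. GCGCGC was found at 2 exon summits (0.727%, interval 0.0882% to 2.60%), against 6.32% of the other summits. The interval holds its 0.364% of flanks and 0.185% of exon windows. TGTTTGC was found at 4 (1.45%, interval 0.398% to 3.68%), against 3.69% of the other summits, and the interval holds its 0.727% of flanks and 1.40% of exon windows. TTTCCCGC, a core of the E2F binding site, was found at 0 of 275, for which the exact interval reaches 1.33% and holds the 1.30% of the other summits. CCCCCC was found in 1.45% of exon summits, GTTCGA in 4.36%, GTAAACA in 0.364% and GAANNTTC in 4.73%, and for these motifs the intervals held the shares of the flanks, the exon windows and the other summits.

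Some matches were few but are listed for their place. TGACGTCA, the cAMP response element recognised by CREB proteins, was in 5 exon summits (1.82%, interval 0.593% to 4.19%), against 0 of the flanks and 0.534% of windows, and the interval holds the 0.932% of the other summits. They were in the coding sequence of eat-16, denn-4, pfn-1, F10G7.10 and mpc-1, and at eat-16 and mpc-1 the match began 2 bp before the summit. CACGTG was in 9 (3.27%, interval 1.51% to 6.12%), against 1.45% of flanks, and the interval holds the 2.34% of windows and the 3.73% of the other summits. Among them were C34C12.2, Y44A6C.1, pqm-1, nadk-2, vit-6 and mnk-1. A match is a string of letters in the window and says nothing of a factor being present.

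The host genes often carried other peaks. The 275 peaks lay in 235 genes. Of these genes, 80 (34.0%, interval 28.0% to 40.5%) also had a peak within 500 bp of one of their own starts, against 5.84% of the 17528 other genes with eligible exon sequence. A peak in the 300 bp past the end was found in 83 hosts (35.3%) and 4.06% of the others, and one in an intron in 36 (15.3%) and 1.35%. Counting only the 194 hosts of peaks that overlapped no other, the shares were 36.1% for starts, 32.5% for ends and 12.4% for introns. No further peak of these kinds was found in 93 hosts. Where a host had a start peak, that peak was the stronger one in 62 of 80 genes, with a median signal of 59.1 for the exon peak and 74.1 for the start peak. Where it had an end peak, that was stronger in 65 of 83, with medians of 59.9 and 87.0. Summits of exon peaks were also nearer to another summit of the list, with a median of 974 bp, against 2594 bp for the others, and 68.7% had one within 2000 bp, against 43.9%. Over peaks that overlapped no other, 59.6% of exon peaks and 35.0% of the rest did.

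More than 1 exon peak was found in 29 host genes, and in 23 of them the peaks did not all overlap each other. The gene with the most was mnk-1, a MAP kinase-interacting kinase, with 5 separate peaks in exons 2, 4, 6 and 7 whose signals were 46.9, 59.4, 67.0, 15.9 and 66.7 from the start of the gene to its end. It also had 4 intron peaks, a start peak of 92.2 and an end peak of 132. Of its exon peaks, that of 67.0 had 51.2 in replicate 1 and 37.2 in replicate 2.

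The glyoxylate-cycle enzyme gene icl-1, a fused isocitrate lyase and malate synthase, had 3 coding peaks with signals of 62.0, 82.9 and 42.2, beside a start peak of 128 and an end peak of 179. The strongest of the 3 had 47.6 in replicate 1 and 49.4 in replicate 2. Separate exon peaks were also found in sams-1 (S-adenosylmethionine synthesis, 65.8 and 57.4), aco-1 (cytoplasmic aconitase, 63.7 and 50.1), nadk-2 (mitochondrial NAD kinase, 60.2 and 37.9) and cpt-1 (carnitine palmitoyltransferase, 58.4 and 49.2). The 2 peaks of sams-1 overlapped both replicates, and those of aco-1 neither.

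Other hosts of more than 1 exon peak had varied roles and were not fixed as a list. The zinc finger factor gene pqm-1 had peaks of 88.7, 55.5 and 2.46, of which the last pair overlap, and no peak at its start or end. The CCCH-domain gene ccch-1 had 3 peaks in its 3′ UTR, of 45.6, 11.4 and 39.5. W06H8.6, annotated with a helix-loop-helix domain, had 55.5 and 55.4, and mep-1, a zinc finger protein of germ-line and somatic gene silencing, had 50.9 and 44.7. The ubiquitin ligase gene wwp-1 had 71.6 and 60.2, beside a start peak of 391 that was far stronger than either. The polyubiquitin gene ubq-1 had 43.9 and 37.6, and vig-1, an RNA-binding protein found with the RNA interference machinery, had 75.1, 48.9 and 14.8 beside a start peak of 289.5. In hil-4 the 3′ UTR peak had 99.2 and the coding peak 63.8, in ppm-2 the values were 95.7 and 56.1, and in mak-1 they were 107, 73.1 and 26.1.

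The remaining hosts of separate exon peaks were F19B2.5 (129 and 29.4), R03D7.2 (a helicase-domain protein, 87.3 and 27.2), F26F12.3 (an IBR-domain protein, 77.4 and 55.2), cbd-1 (a chitin-binding eggshell protein, 42.6 and 16.98) and ZK470.2 (35.7 and 32.5).

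Gene lists count host genes with an exon peak among genes chosen by their names. A host of similar function under another name is not counted, and a gene of other function under a listed name is. In all, 235 of 19973 coding genes (1.18%) were hosts. Vitellogenins, the yolk proteins made in the adult intestine, had 3 of 6 genes as hosts and 8 exon peaks, all in coding sequence. In vit-2 the peaks had signals of 101, 97.8, 16.5 and 11.2, in vit-6 they had 73.6, 54.4 and 32.6, and vit-5 had 73.2. The strongest vit-2 peak had 66.6 in replicate 1 and 41.9 in replicate 2, and at vit-5 the values were 34.3 and 33.1. Vitellogenin genes include near-identical copies, and how reads that match several copies were placed is not given in the sources used here, so the split between copies is uncertain. The 6 genes hold 26.1 kb of eligible exon, which gives 306 exon peaks per Mb, against 13.9 over all genes. Both densities count overlapping peaks one by one, and the vit-2 peaks of 101 and 11.2 overlap each other.

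Chaperones had 6 of 59 genes as hosts. Their peaks were at hsp-12.3 (106), dnj-20 (an endoplasmic reticulum J-domain protein, 94.8 and 23.8), hsp-110 (90.6), hsp-1 (the constitutive HSP70, 90.5), hsp-6 (the mitochondrial HSP70, 60.1 and 10.3) and hsp-90 (58.5). Replicates 1 and 2 gave 70.3 and 52.1 at hsp-1, and 37.4 and 54.7 at hsp-110. The pairs at dnj-20 and hsp-6 each overlap and so do not mark 2 places. The list had 142 exon peaks per Mb of eligible exon, with each peak of these pairs counted.

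The germ-line list takes in every gene whose name begins with him- or pqn-, whatever its role, so its total is not one of germ-line genes alone. It had 10 of 159 genes as hosts, led by car-1 (152), cgh-1 (99.1), pgl-3 (74.6) and pgl-1 (64.7). The last 2 encode scaffold proteins of P granules, the germ-line RNA granules. At cgh-1 the replicates gave 41.7 and 47.5, at pgl-3 they gave 51.1 and 26.3, and at pgl-1 they gave 32.0 and 26.2. Ribosomal protein genes had 4 of 81 as hosts, rpl-3 (61.6), rpl-7 (58.1), rps-13 (51.1) and rps-9 (19.9), although 48 of the 81 had a peak within 500 bp of a start. Of these short genes, 39 have eligible exon, 8.07 kb in all, and the 4 exon peaks there come to 496 per Mb, the highest density of the 21 lists and one that rests on 4 peaks.

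Lists with few hosts are given by their genes. Translation factors had 2 of 39, eef-2 (95.7) and eif-2alpha (48.1). The splicing list had 2 of 49, rsp-3 (103) and sym-4 (69.96). The sym-4 gene entered by its name and is annotated as a WD repeat-containing protein, not as a splicing factor. RNA polymerase II and chromatin genes had 2 of 140, mdt-26 (245) and rpb-3 (58.1), and transcription factors 2 of 142, daf-16 (86.5) and hlh-12 (61.9). That list leaves out pqm-1 (88.7), ets-4 (59.9), crh-2 (47.5) and crh-1 (40.9), which are also annotated as transcription factors or CREB homologs, and W06H8.6, so it is no tally of all such hosts.

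Collagens had col-42 (73.4) as the host among 183 genes, and detoxification genes had ugt-24 (49.9) among 185. Actins and tubulins had act-3 (16.3) among 17, a gene whose sequence is nearly that of other actins, and muscle genes had pat-2 (52.8) among 41. No host was found among 1310 chemoreceptor genes with 842 kb of eligible exon, 412 genes named as F-box, MATH or BTB genes with 309 kb, 240 C-type lectins with 181 kb, 269 nuclear hormone receptors with 269.9 kb or 37 adhesion and matrix genes with 190.2 kb. Histone (72 genes), sperm (53), neuropeptide (140) and Notch ligand and receptor (18) genes also had 0, with 0.81, 3.66, 31.9 and 24.9 kb of eligible exon. The linker histone gene hil-4 is not in the histone list, and the hosts Y44A6C.1 (100.5), DH11.2 (65.3) and K02A6.3 (56.9), annotated as F-box proteins, are not in the F-box list.

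Exon summits near small noncoding genes were few but more frequent than in exon sequence at large. Within 500 bp of a tRNA, snRNA or snoRNA gene lay 14 exon summits (5.09%, interval 2.81% to 8.39%), against 1.00% of eligible sequence and 11.6% of the summits in the rest of the list. Of these, 6 were near an snRNA gene, 6 near an snoRNA gene and 2 near a tRNA gene. For snRNA genes, which in this annotation include spliced leader RNA genes, the share was 2.18%, against 0.108% of eligible sequence and 1.5% of the other summits. The peaks near them at hsp-12.3, C15F1.5 and glr-2, with signals of 106, 97.9 and 95.7, lay 120, 114 and 53 bp from the noncoding gene. At glr-2 that gene is sls-2.16, a spliced leader RNA gene, and the peak had 59.9 in replicate 1 and 34.0 in replicate 2. A second spliced leader gene, sls-2.14, lay 102 bp from the W09D6.5 summit (73.1). Near snoRNA genes were hsp-1 (123 bp), mnk-1 (142 bp), rpl-7 (166 bp) and rps-13 (197 bp). Whether these peaks belong to the noncoding gene or to the exon was not tested.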

How the data were processed

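ChIP-seq peak lists of 2 biological replicates of 1 group were used. Per the labels, peaks are on ce11. Which aligner and peak caller made them is not given in the sources used here. Peak signal is the value the authors deposited, whose scale and control correction are not stated, and the score is the authors' IDR on an integer scale, 830 to 1000 in the conservative list. Both describe and rank peaks within a list. Replicate 1 had 1393 thresholded peaks and replicate 2 had 1276. Summits were placed on WBcel235 with the Ensembl 115 annotation (19973 coding genes), and 99.8% of annotated coding starts read ATG in the RefSeq sequence used. Eligible sequence is every base that meets the position rule. Exon number is that in the transcript with the longest coding sequence at the summit. Genes named are the hosts of the 25 strongest peaks, hosts of separate peaks, and the 4 strongest hosts of each of 21 lists; hsp-6, hsp-90, the hosts named as left out of a list, the 5 genes with TGACGTCA and those named near noncoding genes or CACGTG were chosen after their values were seen. Members, lists and motifs were chosen with earlier results of these data known. No test was run across conditions, regions or genes. The placing rule was tested on simulated positions. Python 3.11.15, numpy 2.4.6, pandas 2.3.3, scipy 1.17.1 and matplotlib 3.10.9 were used.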

Additional observations from a re-analysis of the deposited data

How the results depend on the processing

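The 8 summary values were recomputed under 17 other settings, 92 values in all, of which 66 stayed within 1.5 times the count, within the spread between replicates or within the exact interval of the value reported. From the replicates' own lists the number of exon peaks was 101 to 109 (7.82% to 7.92% of the list), their median signal 37.0 to 42.4, the coding share 65.3% to 67.0% and the share with higher G+C at the summit 68.3% to 68.8%. Keeping only peaks at or above the median signal left 63 (4.595% of those peaks), with a median of 87.3, 44.4% shared by both replicates, 63.5% in coding sequence and 55.6% in the last exon. With 250 bp and 1000 bp from starts the share of the list was 13.1% and 6.71%, and with 500 bp past gene ends 8.86%. With no zone past gene ends there were 457 exon peaks (16.7%), 65.2% of them in the last exon, and 70.7% had higher G+C at the summit. Requiring an overlap of 50% left 9.09% shared by both replicates, and 0.727% of summits were within 100 bp of a tRNA, snRNA or snoRNA gene. Keeping only peaks that overlap no other, a setting chosen after seeing the data, gave 77.9% in coding sequence and 39.9% in the last exon. The cause of these changes was not tested, apart from the smaller number of peaks each setting keeps by construction. The share near noncoding genes rests on 14 summits. The lists of the single replicates gave no share shared by both. Replicate values shared by neighbouring peaks and the placing of reads with several matches limit what single weak peaks show. No paired analysis was possible because the series has 1 group.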
